A study of Homo sapiens with 12 samples.

Results

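Ribosome biogenesis genes encode the proteins that make ribosomal RNA, trim and modify it, and fold it with ribosomal proteins into subunits. The 43 genes described here were chosen by name, as all rows whose gene name equals one of a list of 43 such factors. All 43 were found among the 60660 gene identifiers in the files, and all 43 passed the filter on low values that 16842 genes passed. The list was not built from measured values of these samples, but it was drawn up with earlier results of the same data known.

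Ribosomes are assembled mainly in the nucleolus. RNA polymerase I transcribes a long precursor there, small nucleolar ribonucleoproteins (snoRNPs) guide the modification of its nucleotides, and the small subunit processome and the large subunit assembly factors cleave and fold it. MYC family proteins are known to bind many of these genes through the DNA motif called the E-box, and neuroblastoma cells with an amplified MYCN gene are known for a high demand for ribosomes.

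RNA was sequenced from Kelly, a human neuroblastoma line with amplified MYCN. Each of 3 derivatives carries 1 doxycycline-inducible short hairpin RNA (shRNA): against RCOR2 (shRCOR2), against RCOR1 (shRCOR1) or non-targeting (shCTRL). RCoR1 and RCoR2 are scaffold proteins that link the demethylase KDM1A to histone deacetylases. Each line was measured induced, with doxycycline at 2 µg/mL, and untreated, in 2 libraries each, which makes 6 groups and 12 libraries.

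The induced groups are therefore shRCOR2 induced, shRCOR1 induced and shCTRL induced, and each has the untreated cells of its own line as reference. All groups share the Kelly background with its amplified MYCN and the same medium with serum. The time label reads 72 h for every sample, untreated ones included, but the protocol text speaks of 24 or 48 h, and these statements conflict. Each target is represented by a single shRNA line. Doxycycline and shRNA expression come together in every induced group, and what each contributes within a knockdown line cannot be told apart without the shCTRL line. The sources used here do not say whether the replicates are separate cultures, and p-values here reflect no more than the spread among these samples.

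The files give TPM, a length-scaled share of the measured RNA that has the same total in each library. In bulk RNA, fewer cells that express a gene and less of its RNA per cell cannot be told apart, and a TPM can also move because other genes take a larger or smaller share. Relative depth ran from 1 to 2.14 over the libraries, between 14758 and 16026 genes reached 1 TPM, and mitochondrially encoded genes took 13.3% to 21.4% of TPM. RCOR2, the targeted gene, had 17.7 and 20.5 TPM in induced shRCOR2 cells and 55.4 and 49.9 TPM in untreated ones. RCOR1 had 4.80 and 5.07 TPM in induced shRCOR1 cells and 8.32 and 9.08 TPM in untreated ones, and RCOR2 was also lower in that line (26.0 and 26.3 TPM induced, 51.4 and 50.5 TPM untreated). None of 11 adrenergic neuroblastoma markers averaged under 1 TPM in any group, whereas all 5 leukocyte markers did in every group.

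The motif at which MYC family proteins are known to bind was looked for in the promoters. This search was chosen after results were seen, and MYCN itself was lower in one of the comparisons described later. A window from 250 bases before to 50 bases after the RefSeq start (GRCh38.p14) was available for 35 of the 43 genes. A gene can have windows at more than 1 start, and a match in any of them counted. The letters CACGTG, which read the same on both strands, stood in a window of 17 of these 35 genes (48.6%). The share was 12.8% of the 10874 tested genes with a window and 8.77% of all 27305 genes with a window. RRP12, NOLC1, RRS1, RRP1B, NOP58, URB2, BOP1 and DDX18 had no window. Of the 7 genes that fell in induced shRCOR2 cells, 4 hold the motif (57.1%), a share near that of all members with a window (48.6%). The 26 bases around it are shown for these 4 so that the flanks can be compared. Capitals mark the motif.
DDX21: ccgggtgtccCACGTGgtccccggcg
BYSL: cttcagtcccCACGTGcgatccttcc
GNL3: cttcagttcaCACGTGgcgccagcgg
RCL1: tgttccaaacCACGTGgacgcgtctg

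All 4 lines are read on the plus strand, which is the coding strand of each gene. They come from chr10:68956606-68956631 (DDX21), chr6:41921517-41921542 (BYSL), chr3:52686028-52686053 (GNL3) and chr9:4792938-4792963 (RCL1). The first base of the motif lies at −31 in DDX21, +29 in BYSL, +7 in GNL3 and +5 in RCL1, counted from +1 at the RefSeq start. In the gene annotation of the files (GRCh38) the plus-strand genes DDX21 (ENSG00000165732.13), BYSL (ENSG00000112578.10), GNL3 and RCL1 span chr10:68956170-68985068, chr6:41921499-41933046, chr3:52681156-52694497 and chr9:4792944-4885917. The base directly before the motif is c in DDX21, BYSL and RCL1 and a in GNL3, and the base directly after it is g in DDX21, GNL3 and RCL1 and c in BYSL. The windows of TSR1, NIP7 and DKC1, which also fell, do not hold these letters. A match describes the sequence and shows neither binding nor a cause of any change.

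In shRCOR2 cells the induced libraries held less ribosome biogenesis RNA than the untreated ones. Of the 43 genes, 7 fell and 0 rose by limma (adjusted p below 0.05 over all tested genes), against 6.47% of all tested genes that fell and 7.81% that rose. The 7 were DDX21, BYSL, TSR1, NIP7, DKC1, GNL3 and RCL1. At an unadjusted p under 0.05 the counts were 14 lower and 0 higher, against 12.1% and 17.6% of all tested genes. The median log2 difference over the 43 was −0.32, whereas the median over all tested genes was 0.07, and 40 of the 43 differences were negative. Both induced libraries lay below both untreated libraries for 30 of the 43 genes and above them for 0, against 25.7% and 37.6% of all tested genes.

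Summed over the 43 genes, induced shRCOR2 libraries held 7500.1 and 6771 TPM and untreated ones 9813 and 8171 TPM. NPM1 and NCL together held 2612 and 2495 TPM of the induced and 3924 and 2894 TPM of the untreated sums. The replicate numbers pair libraries across groups, and with that pairing in the model 21 of the 43 fell and 0 rose, against 14.8% of all tested genes that fell and 21.4% that rose. Leaving out any 1 of the 4 shRCOR2 libraries left 4 of the 7 calls, those of DDX21, BYSL, TSR1 and NIP7. DKC1 was in addition not called without either untreated shRCOR1 library (adjusted p = 0.0533 each), with FPKM (0.0562), with median-of-ratios scaling (0.0641) or with no filter (0.0663). Such fits leave a group with 1 library and assume that it varies like the others.

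**Figure D1:**
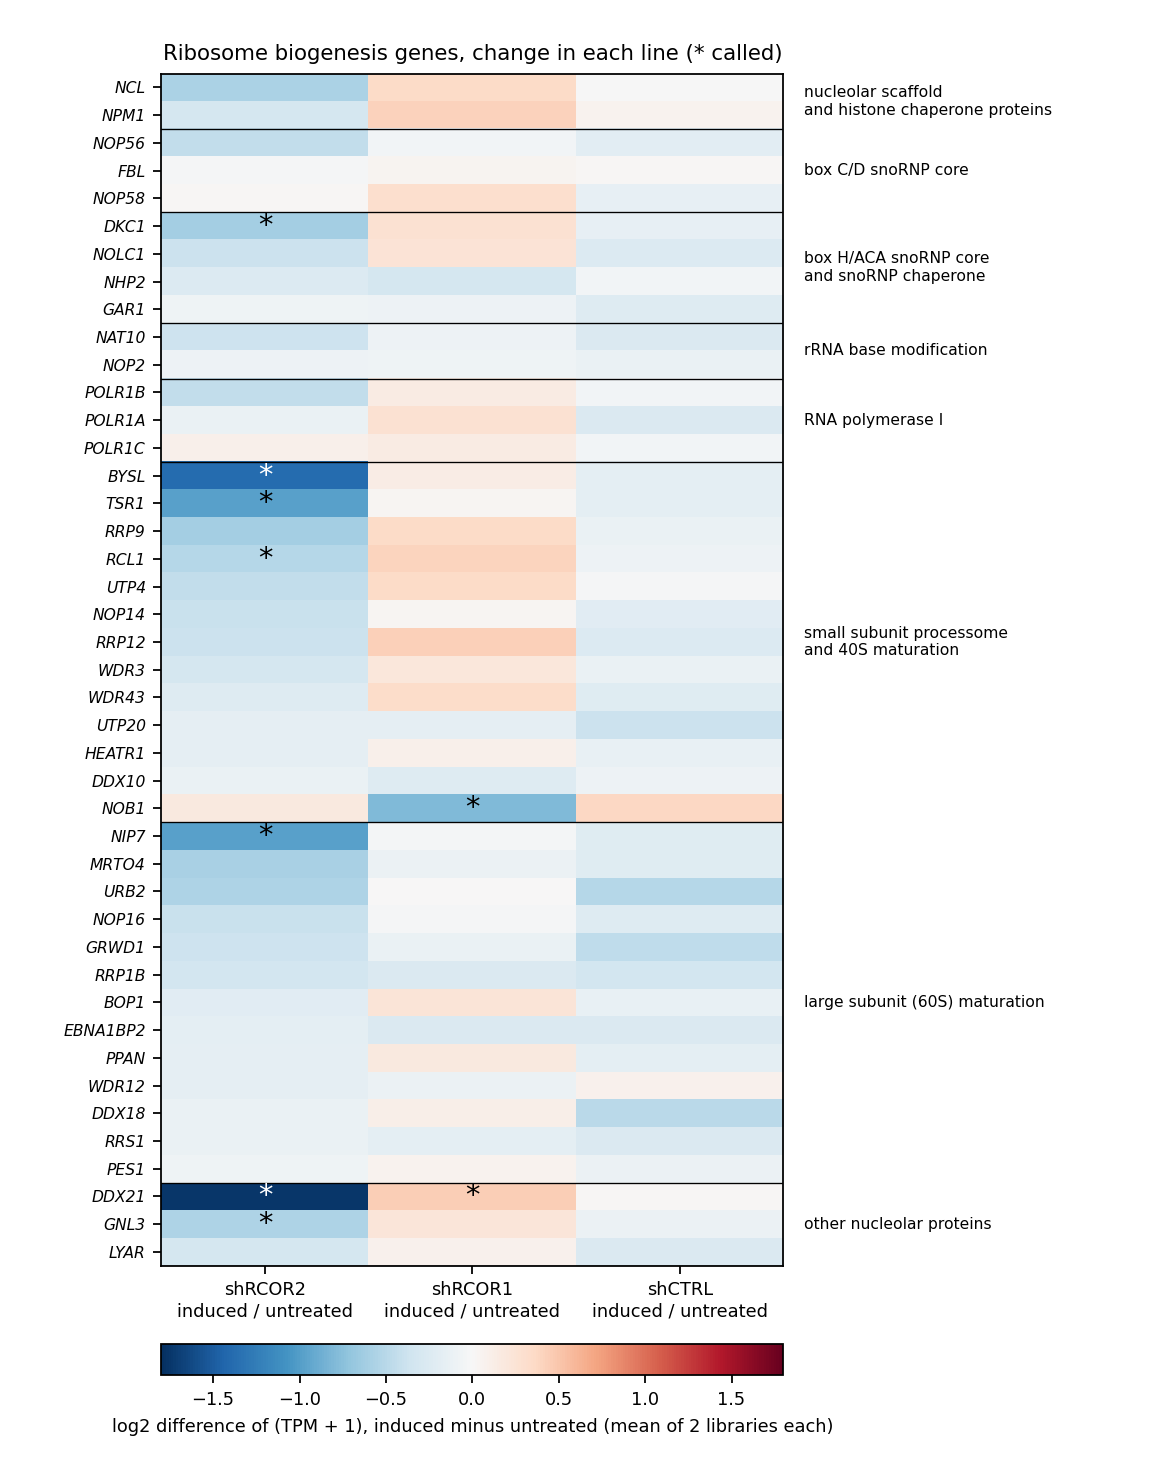
Log2 difference of (TPM + 1), induced minus untreated, of the 43 genes (rows, grouped by role) in the shRCOR2, shRCOR1 and shCTRL lines (columns); each cell is the difference between means of 2 libraries, and stars mark calls at a limma adjusted p below 0.05. The shRCOR2 column holds 7 stars, all on falls and led by DDX21 at −1.75, the shRCOR1 column holds 2 (NOB1 lower, DDX21 higher) and the shCTRL column holds 0.

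DDX21, a nucleolar RNA helicase with roles in RNA polymerase I transcription and pre-rRNA processing, fell furthest. It had 42.9 and 46.3 TPM in induced shRCOR2 cells, against 154 and 151 TPM in untreated ones (means 44.6 ± 2.41 and 152 ± 2.71 TPM, SD, n = 2 each). Both induced libraries were far below every other library of the study, the next lowest being 131 TPM in untreated shCTRL cells. The difference was −1.75 ± 0.10 on the log2 scale (SE; limma adjusted p = 0.000154).
GNL3, or nucleostemin, a nucleolar GTPase involved in pre-rRNA processing, had 199.8 and 183 TPM in induced and 291 and 274 TPM in untreated shRCOR2 cells. It fell by 0.56 ± 0.11 (limma adjusted p = 0.0156), without overlap between the groups. LYAR, a nucleolar zinc finger protein, had 20.6 and 16.7 TPM induced and 24.7 and 22.3 TPM untreated and was not called (−0.32 ± 0.15, limma adjusted p = 0.195).

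The small subunit factors held 3 of the 7 falls. Of 13 such genes, 3 fell, against 6.47% of all tested genes. A negative difference was seen in 12, and the median difference was −0.38. BYSL, or bystin, which takes part in late maturation of the small subunit, had 26.4 and 25.1 TPM in induced shRCOR2 cells and 73.6 and 64.1 TPM in untreated ones, a fall of 1.38 ± 0.19 (limma adjusted p = 0.00372). TSR1, a GTPase-like assembly factor of the same particle, had 44.8 and 42.8 TPM induced and 89.0 and 85.4 TPM untreated, a fall of 0.98 ± 0.14 (limma adjusted p = 0.0041). For both genes the induced shRCOR2 libraries were the lowest of all 12.
RCL1, a processome protein known from yeast to act at early cleavages of the precursor, had 24.2 and 21.9 TPM induced and 33.5 and 32.8 TPM untreated, a fall of 0.51 ± 0.11 (limma adjusted p = 0.0225). The 2 groups did not overlap here either. NOB1, the endonuclease that makes the final cut of small subunit rRNA, was the exception among the 13, with 84.4 and 71.0 TPM induced and 73.0 and 64.5 TPM untreated. Its groups overlapped and it was not called (0.17 ± 0.14, limma adjusted p = 0.459).

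The other small subunit factors had lower mean TPM in induced than in untreated shRCOR2 cells without being called. RRP9, a protein of the snoRNP that guides early cleavage, had 87.4 and 63.9 TPM induced and 129 and 102 TPM untreated (−0.62 ± 0.35, limma adjusted p = 0.286). UTP4, a processome subunit, had 63.7 and 56.8 TPM induced and 90.5 and 74.3 TPM untreated (−0.44 ± 0.18, adjusted p = 0.141). In these 2 genes the groups did not overlap, but the replicates within a group lay far apart. RRP12, known from yeast for subunit export, had 56.0 and 46.0 TPM induced and 72.7 and 60.8 TPM untreated (−0.38 ± 0.23). NOP14 had 27.6 and 24.1 TPM induced and 38.4 and 30.8 TPM untreated (−0.40 ± 0.23), and WDR3 had 44.2 and 44.5 TPM induced and 56.9 and 54.7 TPM untreated (−0.32 ± 0.09, limma adjusted p = 0.0538). WDR43, UTP20, HEATR1 and DDX10, all processome components or helicases, differed by −0.23 to −0.11. With the replicate pairing in the model, RRP9, UTP4, NOP14, RRP12 and WDR3 were called lower as well. That made 8 of 13 small subunit factors, against 14.8% of all tested genes.

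Among 13 large subunit factors all 13 differences were negative and the median was −0.20. Limma called 1 of them lower, near the share of 6.47% over all tested genes. The 1 was NIP7, an adaptor needed for processing of large subunit precursors, with 22.3 and 23.3 TPM in induced and 43.9 and 47.9 TPM in untreated shRCOR2 cells. The fall was 0.98 ± 0.14 (limma adjusted p = 0.00395), and the induced libraries were the lowest of all 12. MRTO4, a factor known from yeast to hold the place of a stalk protein on the immature subunit, had 79.2 and 68.4 TPM induced and 121 and 101 TPM untreated (−0.58 ± 0.25, adjusted p = 0.169). URB2 had 24.0 and 24.3 TPM induced and 35.6 and 36.6 TPM untreated (−0.56 ± 0.20, adjusted p = 0.0937). Both genes had no overlap between groups and were called lower with the replicate pairing. So were GRWD1 (−0.37 ± 0.27 without it) and RRP1B (−0.32 ± 0.13 without it). With NIP7 that made 5 of 13, against 14.8% of all tested genes. PES1, BOP1 and WDR12, which form the PeBoW complex of large subunit processing, differed by −0.07 ± 0.27, −0.20 ± 0.30 and −0.16 ± 0.09. NOP16, EBNA1BP2, PPAN, DDX18 and RRS1 lay between −0.40 and −0.11, and the groups of all but NOP16 overlapped.

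DKC1, the pseudouridine synthase of the box H/ACA snoRNPs, fell among the snoRNP genes of the list. It had 107 and 96.1 TPM in induced and 164 and 146 TPM in untreated shRCOR2 cells, a fall of 0.61 ± 0.15 (limma adjusted p = 0.0308). Its partners GAR1 (−0.08 ± 0.23) and NHP2 (−0.25 ± 0.32) overlapped between groups and were not called, and the snoRNP chaperone NOLC1 was not called either (−0.39 ± 0.18, adjusted p = 0.181).
FBL, the methyltransferase of the box C/D snoRNPs, had 986 and 850.1 TPM induced and 950.3 and 907 TPM untreated, a difference of −0.02 ± 0.16. Its partner NOP58 differed by 0.02 ± 0.14 and NOP56 by −0.44 ± 0.15 (adjusted p = 0.0804). FBL and NOP58 overlapped between groups, whereas NOP56 did not. NOLC1 and NOP56 were called lower beside DKC1 once the replicate pairing was in the model.

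The most abundant members did not pass the test without the pairing in shRCOR2 cells. NPM1, a nucleolar histone chaperone and the most abundant of the 43 per length, had 1853 and 1717 TPM in induced and 2592 and 1908 TPM in untreated cells (−0.32 ± 0.15, adjusted p = 0.209). NCL, or nucleolin, had 759 and 778 TPM induced and 1331 and 987 TPM untreated (−0.58 ± 0.23, adjusted p = 0.128). Neither gene overlapped between groups, and the 2 untreated libraries lay wide apart in both.
Of the RNA polymerase I subunits, POLR1B had 12.7 and 12.3 TPM induced and 17.4 TPM in both untreated libraries (−0.44 ± 0.15, adjusted p = 0.0908). The catalytic subunit gene POLR1A differed by −0.12 ± 0.12 and POLR1C, shared with RNA polymerase III, by 0.09 ± 0.15. POLR1C had 62.6 and 56.6 TPM induced and 59.4 and 52.7 TPM untreated, with overlap. The rRNA-modifying enzymes NAT10, an acetyltransferase, and NOP2, a methyltransferase, differed by −0.37 ± 0.16 and −0.10 ± 0.13, and NOP2 had 139.7 and 133 TPM induced and 148 and 144 TPM untreated. NCL, POLR1B and NAT10 were called lower with the pairing.

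**Figure D2:**
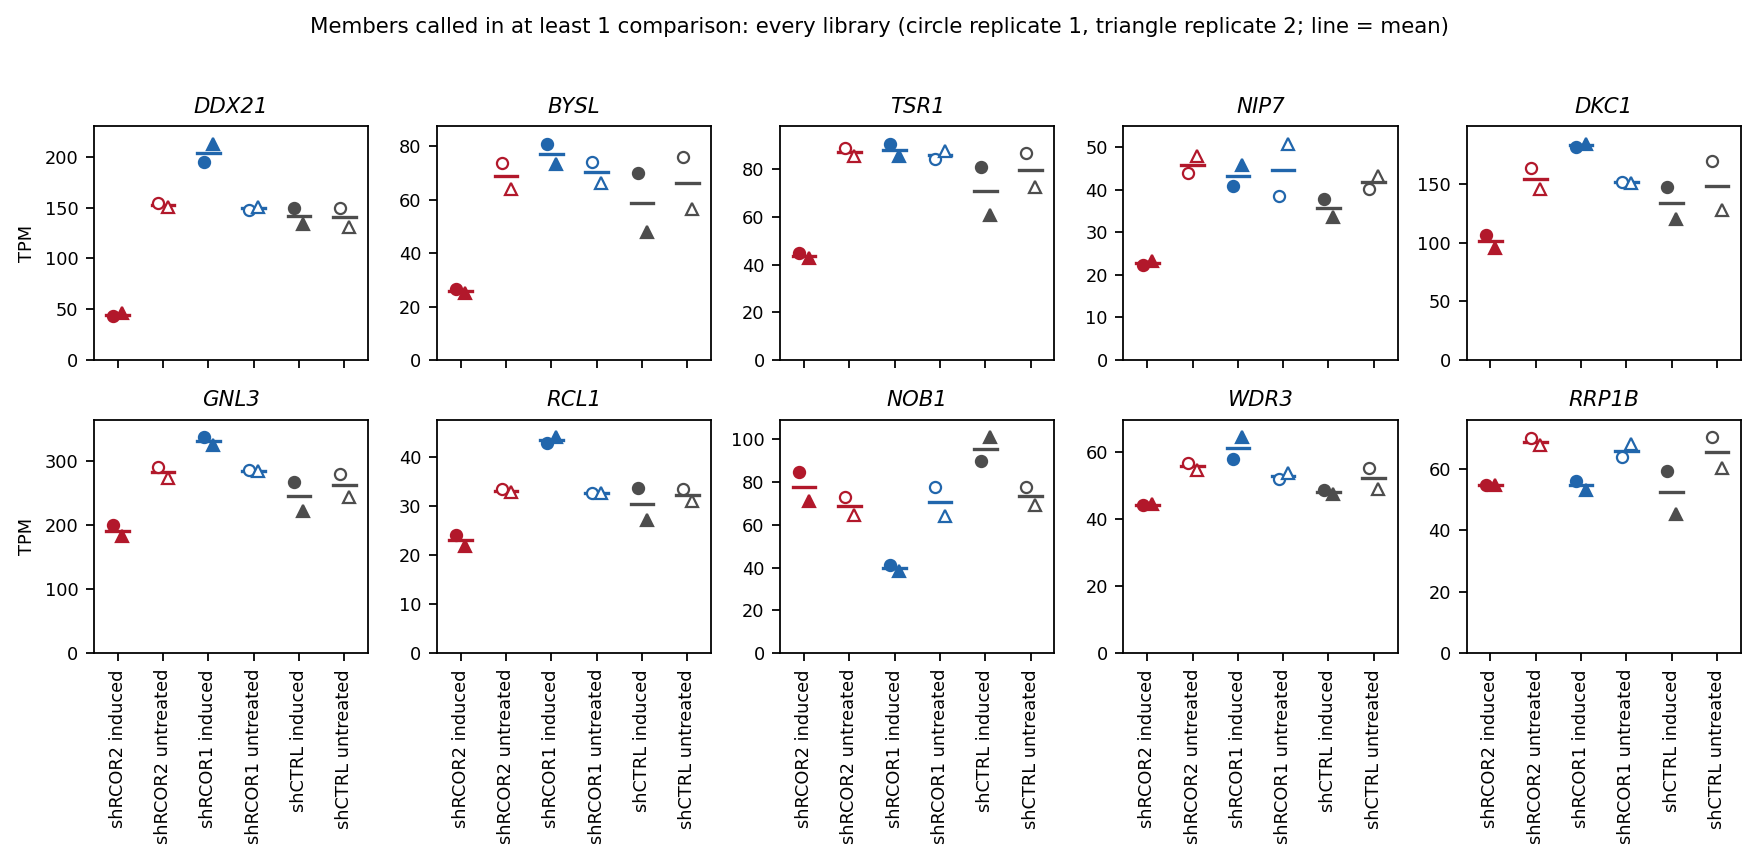
TPM (y axes, each from 0) of the 10 members called in at least 1 comparison of lines or treatments, in every library of the 6 groups; circles are replicate 1, triangles replicate 2, filled symbols induced, open symbols untreated, and lines group means. DDX21 lies at 42.9 and 46.3 TPM in induced shRCOR2 cells and at 131 TPM or more in all other libraries, and NOB1 is lowest in induced shRCOR1 cells (41.4 and 38.5 TPM).

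In shRCOR1 cells most of the 43 genes were not lower after induction. Limma called 1 of 43 lower, NOB1, and 1 higher, DDX21, against 3.64% of all tested genes lower and 4.98% higher. The median difference was 0.07 over the 43 and 0.04 over all tested genes, and 27 differences were positive and 16 negative. Both induced libraries lay above both untreated ones for 19 genes and below for 7, against 29.4% and 23.7% of all tested genes. Summed TPM were 10055 and 9485 in induced and 8874 and 8269 in untreated shRCOR1 cells, so the induced libraries were the higher ones. NPM1 and NCL, which were not called, together held 3982 and 3948 TPM of the induced and 3136 and 2905 TPM of the untreated sums. With the replicate pairing in the model, limma called 6 higher (DDX21, RRP12, NPM1, RCL1, UTP4 and WDR43) and 1 lower (NOB1), against 15.4% of all tested genes higher and 12.1% lower.

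NOB1 had 41.4 and 38.5 TPM in induced shRCOR1 cells and 77.4 and 63.8 TPM in untreated ones, the lowest 2 values of the 12 libraries for this gene. It fell by 0.80 ± 0.14 (limma adjusted p = 0.0102). The call was lost without untreated replicate 1 (−0.66, adjusted p = 0.0862) or induced replicate 2 (−0.75, adjusted p = 0.0796) of the line. In the gene annotation (GENCODE v29) exons of NOB1 overlap an antisense gene, AC092115.3, and reads of the 2 could be counted together, since the strand setting of the counting is not given.

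DDX21 had 195 and 213 TPM in induced shRCOR1 cells and 148 and 151 TPM in untreated ones, the highest 2 values of the study. It rose by 0.44 ± 0.10 (limma adjusted p = 0.0316), opposite in direction to the shRCOR2 line. This call was not stable: it was lost when any 1 of the 8 libraries of the shRCOR1 or shRCOR2 lines was left out (limma adjusted p from 0.0546 to 0.192 over these 8), with FPKM in place of TPM (0.41, adjusted p = 0.0518), with median-of-ratios scaling (0.40, adjusted p = 0.134), with no variance trend (adjusted p = 0.0552) and in a fit of the shRCOR1 groups alone (adjusted p = 0.0903). Without either induced shCTRL library 2 members were called higher in place of 1.

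Several members were higher in both induced than in both untreated shRCOR1 libraries without being called in the fit without pairing. NPM1 had 2599 and 2694 TPM induced and 2097 and 1871 TPM untreated (0.42 ± 0.15, limma adjusted p = 0.138), and NCL had 1383 and 1254 TPM induced and 1038 and 1035 TPM untreated (0.35 ± 0.23). RCL1 had 42.9 and 44.1 TPM induced and 32.6 and 32.7 TPM untreated (0.40 ± 0.11, adjusted p = 0.0656). These genes showed no overlap between the groups. GNL3 had 337 and 324 TPM induced and 285 and 284 TPM untreated (0.22 ± 0.11), and DKC1 had 182 and 185 TPM induced and 152 TPM in both untreated libraries (0.27 ± 0.15). Of the other genes that fell in shRCOR2 cells, BYSL (81.0 and 73.3 TPM induced, 74.2 and 66.4 TPM untreated), TSR1 (90.7 and 85.5 TPM induced, 84.1 and 87.4 TPM untreated) and NIP7 (40.9 and 45.7 TPM induced, 38.5 and 50.8 TPM untreated) overlapped between the groups.

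**Figure D3:**
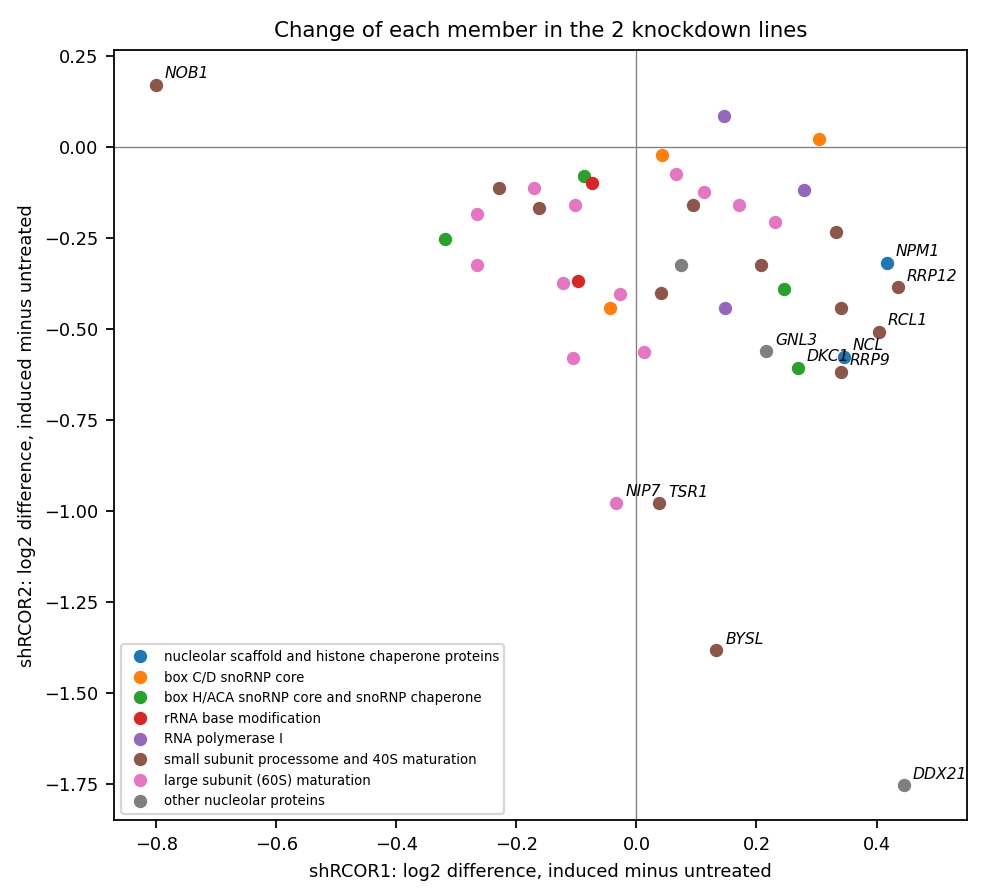
Log2 difference (induced minus untreated) of each of the 43 genes in the shRCOR2 line (y axis) against that in the shRCOR1 line (x axis), coloured by role; each point is 1 gene. In all, 25 genes lie at the lower right (negative in shRCOR2, positive in shRCOR1), 15 are negative in both lines, and NOB1 lies alone at the upper left, with 0.17 in shRCOR2 and −0.80 in shRCOR1. The shares of these sign patterns over all tested genes were not computed.

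In shCTRL cells, which show what doxycycline and a non-targeting shRNA did together, limma called 0 of the 43 and 0 of all genes, a share of 0% in both directions. At an unadjusted p under 0.05, 1 member was higher and 3 were lower, against 1.78% and 3.79% of all tested genes. With the replicate pairing the members called were again 0, against 0.0297% of all tested genes in each direction. The members' median difference was −0.17, below the −0.02 of all tested genes, and 38 of 43 were negative. Both induced libraries lay below both untreated ones for 8 genes and above for 3, against 15.6% and 7.99% of all tested genes.

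In fits without the pairing this median moved with single libraries. Without induced shCTRL replicate 2 it was 0.07 and without untreated replicate 1 it was −0.01. Without induced replicate 1 it was −0.42 and without untreated replicate 2 it was −0.35. Such fits set 1 library against the mean of both replicate numbers, so the difference between replicate numbers enters them. The member median of log2(TPM + 1) in shCTRL cells was 6.496 induced and 6.401 untreated within replicate 1. Within replicate 2 it was 5.981 induced and 6.134 untreated. These are median levels of single libraries, not medians of the change of each gene, and the 2 measures can differ. In replicate 1 the summed TPM below was lower induced than untreated, although the median level was higher. Summed TPM were 8971 and 7041 in induced and 9089 and 7511 in untreated shCTRL cells, so the replicates differed more than the treatments. Of the genes that fell in shRCOR2 cells, DDX21 had 150.0 and 134 TPM in induced and 149.6 and 131 TPM in untreated shCTRL cells, a difference of 0.02 ± 0.10. BYSL had 69.8 and 48.0 TPM induced and 76.0 and 56.4 TPM untreated (−0.17 ± 0.19). NOB1 had 89.4 and 101 TPM induced and 77.6 and 69.2 TPM untreated (0.37 ± 0.14, adjusted p = 0.871). DDX21 and BYSL overlapped between the treatments and NOB1 did not.

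The differences between lines were then tested directly. The shRCOR2 change minus the shCTRL change was called for 1 of 43 genes, DDX21 (−1.77 ± 0.14, limma adjusted p = 0.00256), against 1.2% of all tested genes lower and 0.891% higher. BYSL (−1.21 ± 0.27, adjusted p = 0.0625), TSR1 (−0.80 ± 0.20, adjusted p = 0.0807) and NIP7 (−0.75 ± 0.20, adjusted p = 0.0925) missed the threshold, and these 3 and GNL3 were called beside DDX21 with the replicate pairing, 5 in all, against 5.8% of all tested genes lower and 8.93% higher. The median of this difference was −0.14 over the members and 0.09 over all tested genes. It turned positive without induced shCTRL replicate 1 (0.13) or untreated shCTRL replicate 2 (0.03). Those 2 fits ignore the pairing, so the difference between replicate numbers enters them. Within replicate 1 the member median of log2(TPM + 1) was 6.016 induced and 6.491 untreated in shRCOR2, and 6.496 and 6.401 in shCTRL cells. Within replicate 2 it was 5.852 and 6.235, and 5.981 and 6.134. These are median levels of single libraries, another measure than the median of the per-gene differences (−0.14) above. By the median levels alone the shRCOR2 change was the lower one in both replicate numbers. The median of per-gene differences within each replicate number was not computed. A shift of the whole list was not tested. The DDX21 call held without any 1 library. Without induced shCTRL replicate 2 the count was 3.

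The shRCOR1 change minus the shCTRL change, which uses the same control libraries, was called for 1 gene, NOB1 (−1.17 ± 0.19, limma adjusted p = 0.0318), against 0.439% of all tested genes lower and 0.843% higher. With the replicate pairing RCL1 (0.49 ± 0.13) and DDX18, a helicase of large subunit assembly (0.60 ± 0.15), were called higher as well, against 6.59% of all tested genes higher and 3.57% lower. DDX18 had 65.0 and 63.8 TPM in induced and 59.8 and 59.3 TPM in untreated shRCOR1 cells, and 44.6 and 35.8 TPM in induced and 62.5 and 51.2 TPM in untreated shCTRL cells. The NOB1 call was lost in 11 of the 12 fits that leave out 1 library, all but the one without induced shCTRL replicate 1, with values from −1.31 to −1.03 (adjusted p up to 0.136), with median-of-ratios scaling (adjusted p = 0.0613) and in a fit of only the groups compared (adjusted p = 0.132). The members' median was 0.24, against 0.05 over all tested genes, and 0.004 without induced shCTRL replicate 2.

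The shRCOR2 change minus the shRCOR1 change needs no shCTRL library. It was called for 9 of 43 genes, 8 lower and 1 higher in shRCOR2, against 5.97% of all tested genes lower and 5.2% higher. The 8 were DDX21 (−2.20 ± 0.14), BYSL (−1.51 ± 0.27), TSR1 (−1.02 ± 0.20), NIP7 (−0.94 ± 0.20), RCL1 (−0.91 ± 0.16), DKC1 (−0.87 ± 0.21), GNL3 (−0.78 ± 0.16) and WDR3 (−0.53 ± 0.13), with limma adjusted p from 0.000595 to 0.038. The 1 was NOB1 (0.97 ± 0.19, limma adjusted p = 0.0162). WDR3, a small subunit processome protein, was called in neither line alone and had 57.9 and 64.5 TPM in induced and 51.9 and 53.8 TPM in untreated shRCOR1 cells, beside the shRCOR2 values given above. With the replicate pairing 15 were lower and 1 was higher, against 14.7% and 15.7% of all tested genes. For 15 of the 43, both induced libraries lay below both untreated ones in shRCOR2 and above them in shRCOR1, against 8.02% of all tested genes.

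Only DDX21, BYSL and RCL1 kept this call in all 12 fits that leave out 1 library. The count of 9 became 3 without untreated shRCOR1 replicate 1 or induced shRCOR2 replicate 1, and 4 or 5 without any other library of these 2 lines. It was 12 without either induced shCTRL library. DKC1 was not called with no filter (adjusted p = 0.0693), with FPKM (0.063) or with median-of-ratios scaling (0.0851), nor was GNL3 with median-of-ratios scaling (0.0762). WDR3 was not called with FPKM (0.0689), median-of-ratios scaling (0.075), TPM without mitochondrially encoded genes (0.0606) or no variance trend (0.0619). The members' median difference between these lines was −0.40, against 0.04 over all tested genes.

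Averaged over the 3 lines, which all received doxycycline, 5 genes were lower and 0 higher, against 4.9% of all tested genes lower and 4.71% higher. In the paired fit 12 were lower and 0 higher, against 15% and 18.4% of all tested genes. DDX21 (−0.43 ± 0.06), BYSL (−0.47 ± 0.11), NIP7 (−0.41 ± 0.08) and TSR1 (−0.37 ± 0.08) are the genes with the 4 largest falls within the shRCOR2 line, and their differences in shCTRL cells lie between −0.22 and 0.02. RRP1B, a nucleolar factor of large subunit processing, was the one with a like difference in each line: −0.32 ± 0.13 in shRCOR2, −0.27 ± 0.13 in shRCOR1 and −0.32 ± 0.13 in shCTRL (mean −0.30 ± 0.08, limma adjusted p = 0.0401). It had 54.7 and 54.8, 56.0 and 53.2, and 59.1 and 45.4 TPM in induced shRCOR2, shRCOR1 and shCTRL cells, against 69.9 and 67.6, 63.7 and 67.9, and 70.2 and 60.3 TPM in the untreated cells of the same lines. Both induced libraries lay below both untreated ones in all 3 lines. With no filter, with FPKM or with median-of-ratios scaling BYSL and RRP1B lost this call, TSR1 lost it with no filter and with median-of-ratios scaling, and RRP1B lost it with no variance trend (adjusted p over these settings from 0.0506 to 0.0862). The RRP1B call was lost in 10 of the 12 fits that leave out 1 library (adjusted p up to 0.109), and the count of 5 became 1 without untreated shRCOR2 replicate 2 or either induced shRCOR2 library, 2 without untreated shRCOR1 replicate 1 or 2, induced shRCOR1 replicate 2, untreated shRCOR2 replicate 1 or untreated shCTRL replicate 1, 3 without induced shRCOR1 replicate 1, and 9 without induced shCTRL replicate 1.

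Before induction the lines did not differ detectably in these genes. Limma called 0 of 43 in untreated shRCOR2 against untreated shCTRL cells and 0 in untreated shRCOR1 against untreated shCTRL cells, both against 0% of all tested genes, also with the replicate pairing, and 0 members had an unadjusted p under 0.05 in either. The member medians were 0.10 and 0.09, with 42 and 37 of 43 positive, against all-gene medians of 0.01 and −0.02. In fits without the pairing these medians moved with single libraries. Without untreated shCTRL replicate 1 they were 0.27 and 0.24, and without untreated shCTRL replicate 2 they were −0.05 and −0.09. The first was 0.02 without untreated shRCOR2 replicate 1 and 0.18 without replicate 2. The second was 0.05 without untreated shRCOR1 replicate 1. Such fits set 1 library against the mean of both replicate numbers, so the difference between replicate numbers enters them. Within replicate 1 the member median of log2(TPM + 1) was 6.491 in untreated shRCOR2, 6.412 in untreated shRCOR1 and 6.401 in untreated shCTRL cells. Within replicate 2 it was 6.235, 6.287 and 6.134 in the same order. These are median levels of single libraries, not medians of the difference of each gene. DDX21, for example, stood at 154 and 151 TPM in untreated shRCOR2 cells, at 148 and 151 TPM in untreated shRCOR1 cells and at 149.6 and 131 TPM in untreated shCTRL cells.

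The members most like DDX21 over the 3 within-line differences, by the mean absolute difference from it, were BYSL (0.29), NCL (0.43) and TSR1 (0.46). NCL shares the sign of DDX21 in shRCOR2 and shRCOR1 cells but a smaller size in shRCOR2 cells (−0.58 against −1.75). Measured per length, the 43 genes span 12.3 TPM (POLR1B, induced shRCOR2) to 2694 TPM (NPM1, induced shRCOR1). The 7 genes that fell in shRCOR2 cells average between 32.5 TPM (RCL1) and 266.0 TPM (GNL3) over all libraries.

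The genomic setting of the members also differs from that of other genes. Of the 43, 9 (20.9%) hold snoRNA genes within them, 28 in all, against 1.83% of 12880 tested protein-coding genes. Among the 7 that fell in shRCOR2 cells, TSR1, DKC1 and GNL3 do and DDX21, BYSL, NIP7 and RCL1 do not. Exons of 24 members overlap those of another annotated gene, so that their values may include its reads. In NOP56, NOP58, DKC1 and BOP1 these are only snoRNA or microRNA genes. The share of such overlaps over all tested genes was not computed. TSR1 overlaps SRR and SGSM2 on the opposite strand, NIP7 overlaps COG8, and GNL3 overlaps GLT8D1, whereas DDX21, BYSL and RCL1 overlap none.

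Other genes of the same pathway, from lists of factors that are not among the 43, moved less uniformly. Over all tested genes limma called 6.47% lower and 7.81% higher in shRCOR2 cells, and 3.64% and 4.98% in shRCOR1 cells. With the pairing these shares were 14.8% and 21.4%, and 12.1% and 15.4%. Counts of the lists here and below can be set against these shares. The unpaired falls of the 2 subunit lists in shRCOR2 cells lie near them. Of 43 further small subunit factors, 3 fell and 1 rose in shRCOR2 cells (median −0.12): KRR1 (−0.74 ± 0.10), a processome protein, the kinase RIOK1 (−0.60 ± 0.12) and UTP25 (−0.58 ± 0.15) fell, and the kinase RIOK3 rose (0.43 ± 0.12). In shRCOR1 cells RIOK3 (0.71 ± 0.12) and the methyltransferase BUD23 (0.43 ± 0.10) rose and NOL10 fell by 1.48 ± 0.19 (median 0.00). Of 47 further large subunit factors, 4 fell and 1 rose in shRCOR2 cells (median 0.01), namely RSL24D1 (−0.95 ± 0.14), CEBPZ (−0.72 ± 0.11), TEX10 (−0.59 ± 0.15), GNL3L (−0.45 ± 0.10) and, higher, NOP53 (0.61 ± 0.12). In shRCOR1 cells RSL24D1 rose (0.77 ± 0.14), as did the export adaptor NMD3 (0.66 ± 0.12) and RPF2 (0.44 ± 0.10), and 0 fell (median 0.08). RSL24D1, which like DDX21 fell in shRCOR2 and rose in shRCOR1 cells, had 80.3 and 80.2 TPM in induced and 163 and 150.3 TPM in untreated shRCOR2 cells, and 254 and 339 TPM in induced and 168 and 175 TPM in untreated shRCOR1 cells. In the paired fit the small subunit list had 11 falls and 4 rises in shRCOR2 and 2 falls and 4 rises in shRCOR1 cells, and the large subunit list 8 falls and 3 rises in shRCOR2 and 2 falls and 9 rises in shRCOR1 cells.

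Of 11 further RNA polymerase I genes, 3 fell and 0 rose in shRCOR2 cells (median 0.13): the subunits POLR1G (−1.24 ± 0.29) and POLR1F (−0.44 ± 0.10) and the initiation factor RRN3 (−0.43 ± 0.12). In shRCOR1 cells 1 fell, the promoter factor gene TAF1B (−0.79 ± 0.11). Of 12 snoRNP assembly genes NAF1 fell in shRCOR2 cells (−0.51 ± 0.11) and 0 were called in shRCOR1 cells. Of 23 exosome and RNase MRP genes 1 fell in each knockdown line, POP1 in shRCOR2 (−0.73 ± 0.15) and POP5 in shRCOR1 cells (−0.59 ± 0.12). Of 21 RNA polymerase III genes 2 rose and 3 fell in shRCOR2 cells and 1 rose in shRCOR1 cells, CRCP (1.25 ± 0.10). None of these lists had a call in shCTRL cells, with or without the pairing. Over all tested genes 6.47% fell and 7.81% rose in shRCOR2 cells, and 3.64% fell and 4.98% rose in shRCOR1 cells. With the pairing the polymerase I list had 3 falls and 1 rise in shRCOR2 and 2 falls and 1 rise in shRCOR1 cells, and the snoRNP list 1 fall and 0 rises and then 2 falls and 1 rise in these lines. The exosome and RNase MRP list had 4 falls and 6 rises in shRCOR2 and 6 falls and 2 rises in shRCOR1 cells, and the polymerase III list 3 falls and 6 rises in shRCOR2 and 5 falls and 2 rises in shRCOR1 cells.

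The 78 cytosolic ribosomal protein genes, the structural parts of the ribosome, had a positive median in every line, opposite in sign to the members in shRCOR2 and shCTRL cells and alike in shRCOR1 cells. Their median difference was 0.34 in shRCOR2 cells (71 of 78 positive), 0.19 in shRCOR1 cells (66 positive) and 0.22 in shCTRL cells (77 positive). It stayed positive in each line with FPKM and with both other scalings. The calls depend on the pairing. With it 59 rose and 5 fell in shRCOR2 cells, against 21.4% and 14.8% of all tested genes. In shRCOR1 cells 30 rose and 3 fell with it, against 15.4% and 12.1% of all tested genes. Without it, in shRCOR2 cells 4 rose (RPL5, RPL11, RPL17 and RPS25, by 0.45 to 0.49) and 2 fell (RPS2, −0.99 ± 0.16, and RPL36A, −0.90 ± 0.22). In shRCOR1 cells RPL6 (−0.66 ± 0.12) and RPL17 (−0.66 ± 0.10) fell. RPS2 had 2953 and 2447 TPM in induced and 5542 and 5114 TPM in untreated shRCOR2 cells, without overlap.

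**Figure D4:**
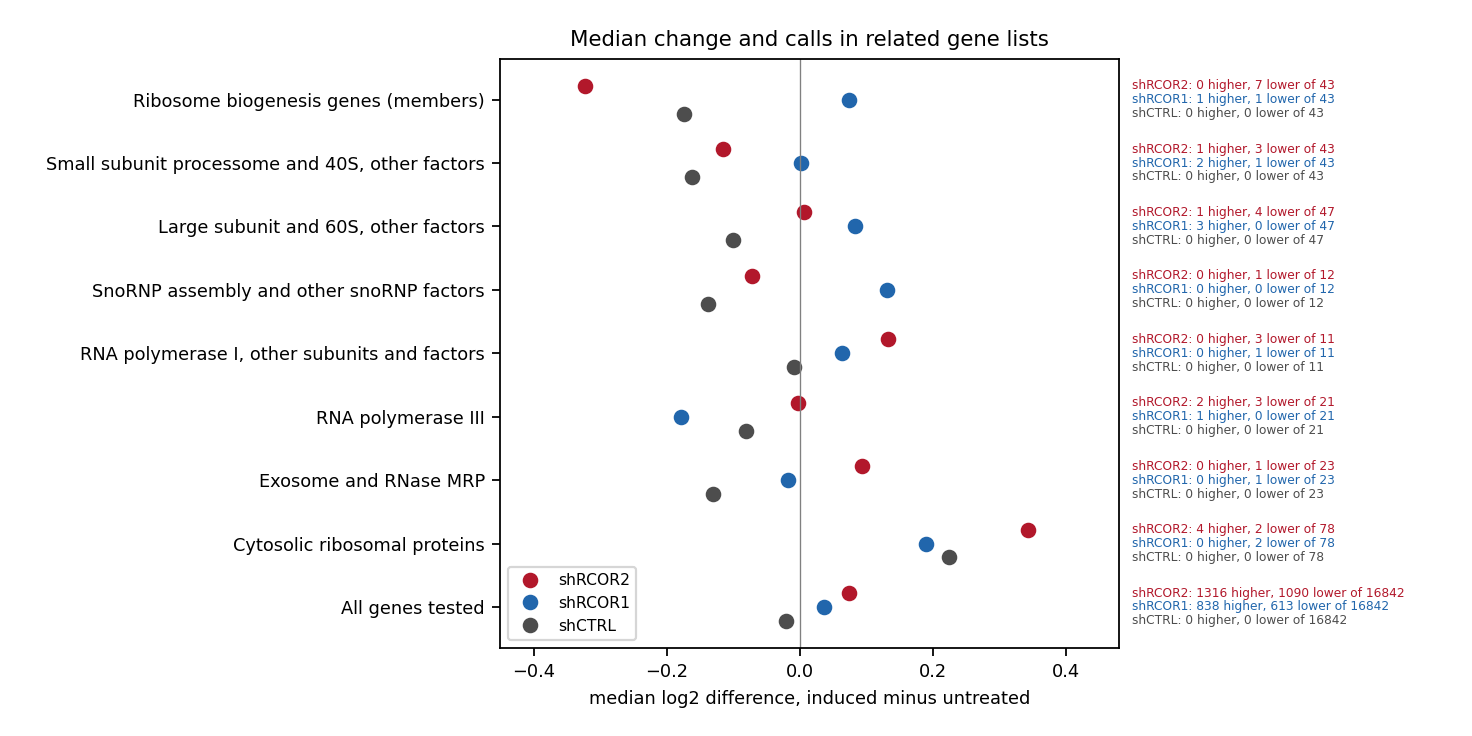
Median log2 difference, induced minus untreated (x axis), of the 43 members, of related gene lists and of all genes tested (rows) in the shRCOR2, shRCOR1 and shCTRL lines; the counts at the right give limma calls without the replicate pairing. The members lie at −0.32 (shRCOR2), 0.07 (shRCOR1) and −0.17 (shCTRL), whereas the ribosomal proteins lie above 0 in each line.

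Regulators and markers of growth moved beside these genes. MYCN had 1269 and 1042 TPM in induced and 3019.9 and 2677 TPM in untreated shRCOR2 cells (−1.31 ± 0.31, limma adjusted p = 0.0269), 2190.4 and 2385 TPM in induced and 2835 and 2826 TPM in untreated shRCOR1 cells (−0.31 ± 0.31, adjusted p = 0.627), and 2928 and 1421 TPM in induced and 2923 and 1999.9 TPM in untreated shCTRL cells (−0.25 ± 0.31, adjusted p = 0.989). MYC stayed under 1 TPM in all 12 libraries. Of 10 tested MYC family genes, MXD1 (0.95 ± 0.24) rose and MYCN and MXI1 (−0.71 ± 0.12) fell in shRCOR2 cells, and MXI1 rose in shRCOR1 cells (0.55 ± 0.12). Whether MYCN has a part in the falls of the ribosome biogenesis genes was not tested.

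Of 14 p53 target genes 8 rose and 1 fell in shRCOR2 cells (median 1.03), among them CDKN1A (1.66 ± 0.17) and BBC3 (1.35 ± 0.21), while 2 rose and 1 fell in shRCOR1 cells (median 0.04). Of 12 mitotic genes 7 fell in shRCOR2 cells (median −0.92; MKI67 −0.96 ± 0.22), 1 fell in shRCOR1 cells (median −0.76) and 0 were called in shCTRL cells (median −0.42). In the paired fit the p53 targets had 10 rises and 1 fall in shRCOR2 and 3 of each in shRCOR1 cells, the mitotic genes 12 falls in shRCOR2 and 10 in shRCOR1 cells, and the MYC family genes 2 rises and 4 falls in shRCOR2 and 4 rises and 2 falls in shRCOR1 cells. Of 11 CoREST complex genes 2 fell in shRCOR2 and 3 in shRCOR1 cells, targeted genes included, and with the pairing 3 fell in shRCOR2 and 5 fell and 1 rose in shRCOR1 cells. The 11 adrenergic markers summed to 3924 and 4614 TPM in induced and 6558 and 6967 TPM in untreated shRCOR2 cells, with 1 rise and 3 falls (1 and 7 with the pairing), and to 4670.3 and 3901 TPM in induced and 7546 and 7585 TPM in untreated shRCOR1 cells, with 5 falls (6 and 1 rise with the pairing).

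Markers of other cell types summed to less than the adrenergic ones but were not still. The 8 mesenchymal-type neuroblastoma markers summed to 271 and 456 TPM in induced and 224 and 259 TPM in untreated shRCOR1 cells, where 1 fell and 0 rose (1 fell and 4 rose with the pairing), and to 221 and 222 TPM in induced and 227 and 297 TPM in untreated shRCOR2 cells. In shCTRL cells they summed to 234 and 447 TPM induced and 262 and 443 TPM untreated. Replicate 2 of both shCTRL groups was thus near replicate 2 of induced shRCOR1 cells. The 5 epithelial markers summed to 16.8 and 30.4 TPM in induced and 8.23 and 8.91 TPM in untreated shRCOR1 cells, with 1 rise among 4 tested (3 with the pairing). In shRCOR2 cells they summed to 10.2 and 13.4 TPM induced and 6.18 and 9.65 TPM untreated, with 0 calls (2 rises with the pairing). The 6 fibroblast markers ranged from 32.9 to 152 TPM and the 5 Schwann cell markers from 1.94 to 10.1 TPM over all libraries. The epithelial marker CDH1 and the leukocyte marker CD3E were listed at 0 in all 12. The part of growth state and of cell identity in the results was not tested.

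Libraries of replicate 2 held less ribosome biogenesis RNA than those of replicate 1. With 6 group means in the model, limma called 22 of 43 lower and 0 higher in replicate 2 than in replicate 1, against 14% of all tested genes lower and 33.4% higher. The median was −0.17 over the members and 0.10 over all tested genes. EBNA1BP2 (−0.61 ± 0.10), the box H/ACA protein gene NHP2 (−0.51 ± 0.06), RRP9 (−0.50 ± 0.11), BOP1 (−0.44 ± 0.08) and PES1 (−0.42 ± 0.06) led the list. BYSL, DKC1 and GNL3 are in both this list and that of the falls in shRCOR2 cells, whereas DDX21, TSR1, NIP7 and RCL1 are not.

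The size of this difference varied by group. The members' median of replicate 2 minus replicate 1 was −0.11 in induced and −0.17 in untreated shRCOR2 cells, −0.08 in induced and −0.01 in untreated shRCOR1 cells, and −0.44 in induced and −0.29 in untreated shCTRL cells, where 42 of 43 genes were lower in replicate 2 of the induced group. The 6 fibroblast markers summed to 52.9 TPM in replicate 2 and 40.7 TPM in replicate 1 of induced shRCOR2 cells, and to 80.01 and 36.6 TPM in the untreated ones in the same order. The sums, again replicate 2 before replicate 1, were 85.1 and 36.4 TPM in induced and 60.6 and 36.4 TPM in untreated shRCOR1 cells. In shCTRL cells they were 146 and 32.9 TPM induced and 152 and 44.1 TPM untreated. They were higher in replicate 2 of all 6 groups, most of all in shCTRL cells, where the members' medians are also furthest from 0. The other groups were not ordered alike. Induced shRCOR1 cells, with 85.1 and 36.4 TPM, had a median of −0.08, and induced shRCOR2 cells, with 52.9 and 40.7 TPM, one of −0.11. COL1A2 and DCN of this list stayed under 1 TPM in all 12 libraries. The 5 Schwann cell markers summed to 10.1 TPM in replicate 2 and 2.70 TPM in replicate 1 of induced shCTRL cells and to 9.88 and 2.58 TPM in the untreated ones. In induced shRCOR2 cells these sums were 2.64 and 3.02 TPM in the same order, the only group in which replicate 2 was lower. Within every group the replicate 2 library had the larger mitochondrial share of TPM, and the labels do not say what the replicate numbers stand for. With mitochondrially encoded genes left out of TPM, the members' median was −0.09 in place of −0.17 (15 lower and 1 higher) and that of all genes 0.17, and with median-of-ratios scaling the members' median was −0.28 (35 lower). The shares of all tested genes called under these settings are not given here, so the counts cannot be set against them. The part of depth and of the marker genes was not tested.

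**Figure D5:**
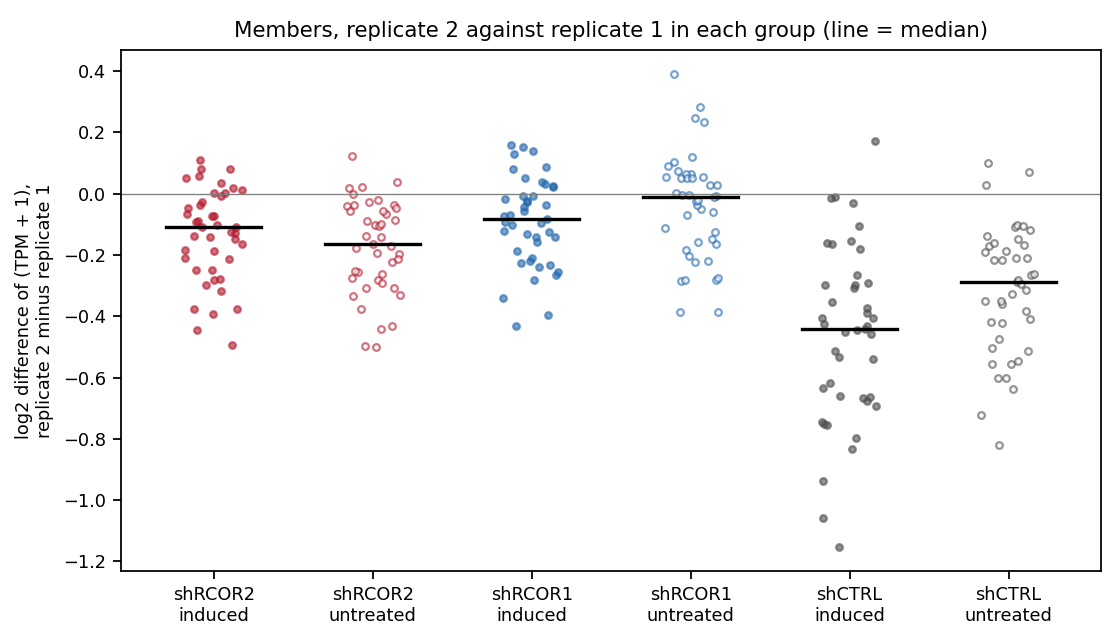
Log2 difference of (TPM + 1), replicate 2 minus replicate 1 (y axis), of each of the 43 genes (points) within each of the 6 groups (x axis); black lines are medians. Medians lie between −0.01 in untreated shRCOR1 and −0.44 in induced shCTRL cells.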

How the data were processed

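Total RNA of 12 Kelly cell libraries went into directional NEBNext Ultra II libraries, per the labels' protocols. Trim Galore 0.6.7, HISAT2 2.2.1, StringTie 2.1.7 and the builds GRCh38 and hg38 are named, per the submitters' processing notes. Not given in the sources used here are the strand setting, the release of the annotation and the treatment of multiply aligned reads. The TPM were deposited by the authors per gene, scaled to the same total in each library. The deposited FPKM served as an alternative. The deposited coverage signal, set against FPKM, gave relative depth (1 to 2.14). The files hold no counts, so no counting interval is given.

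The 16842 genes that reached 1 TPM in 2 or more libraries were fitted as log2(TPM + 1), a scale that understates the changes of low genes. The 6 group means were fitted to all 12 libraries with limma 3.58.1 under R 4.3.3, and a variance trend was used. Calls are genes whose p, adjusted by Benjamini-Hochberg over the whole table, lies below 0.05. Values of the 2 identifiers that stand on 2 rows of a file were summed. The script was tested on simulated data. Tables and figures were made in Python 3.11.15 with pandas 2.3.3, numpy 2.4.6 and matplotlib 3.10.9.

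Deviations of same-numbered replicates from their group means correlated across genes in all 15 pairs of groups (0.37 to 0.75), so the replicate numbers pair the samples. The fit without this block stays the main one, and counts with the block are given beside it. Alternatives were another pseudocount, no filter, FPKM, 2 other scalings, TPM without mitochondrially encoded genes, no variance trend, only the groups compared, and each library left out in turn.

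The members and lists were chosen with earlier results of these data known. Values in every library are given for members called in a contrast, up to 16 by the size of their within-line difference, and for the most abundant member of roles without a call. From other lists at most 4 called genes are named, a limit set aside where a list had 5 calls. E-box windows, DDX18 and RSL24D1 values were chosen after results were seen. Promoter sequences are from RefSeq (GRCh38.p14), and snoRNA genes and exon overlaps are from GENCODE v29.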

Additional observations from a re-analysis of the deposited data

Results flagged for a closer look

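The following results are listed because the change on induction differed between 2 lines in a test of that difference itself, the interaction contrast in limma. The log2 change of DDX21 in shRCOR2 minus that in shCTRL cells was −1.77, and that of NOB1 in shRCOR1 minus shCTRL cells was −1.17. The shRCOR2 change minus the shRCOR1 change was −2.20 for DDX21, −1.51 for BYSL, −1.02 for TSR1, −0.94 for NIP7, −0.91 for RCL1, −0.87 for DKC1, −0.78 for GNL3 and −0.53 for WDR3, and 0.97 for NOB1. Contrasts against shCTRL share its 4 libraries, and the shRCOR2 and shRCOR1 libraries enter 2 contrasts each, so the values of 1 gene in these contrasts are not independent. No group had enough libraries to look for a single library that stands apart from the others.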

How the results depend on the processing

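The count of 7 falls in shRCOR2 cells became 21 with the replicate block, while the falls over all tested genes went from 1090 to 2489. The 1 rise in shRCOR1 cells became 0 with FPKM, with median-of-ratios scaling, with no variance trend and with only the groups compared, and 6 with the replicate block. Over all tested genes the 838 rises became 798, 891, 763, 348 and 2590 in the same order. The 1 call in shRCOR2 minus shCTRL became 3 with quantile normalization, 2 without mitochondrially encoded genes and 5 with the replicate block. All of these calls were lower. Over all tested genes the 202 lower calls became 343, 154 and 977 in the same order, and the 150 higher calls 129, 81 and 1504. The 1 call in shRCOR1 minus shCTRL became 0 with median-of-ratios scaling and with only the groups compared, and 3 with the replicate block. The 9 calls in shRCOR2 minus shRCOR1 became 14 with only the groups compared and 16 with the replicate block. The 5 calls in the mean of 3 lines became 2 with no filter, 3 with FPKM, 2 with median-of-ratios scaling and 12 with the replicate block. The 22 calls between replicates became 12 with no filter and 35 with median-of-ratios scaling. The pairing by replicate number ended no call of a named member. For the remaining settings, shares of all tested genes are not set beside these counts. There a change in the members cannot be told apart from a change in the number of genes called altogether.

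Leaving out 1 library at a time gave 4 to 10 falls and 0 rises in shRCOR2, 0 to 1 falls and 0 to 2 rises in shRCOR1 and 0 of either in shCTRL cells. It gave 1 to 3 calls in shRCOR2 minus shCTRL, 0 to 1 in shRCOR1 minus shCTRL, 3 to 12 in shRCOR2 minus shRCOR1, 1 to 9 in the mean, 0 in both comparisons of untreated cells and 16 to 24 between replicates. The number of all tested genes called also changed with the library left out. FBL and GNL3 changed sign between replicates with quantile normalization (0.026 and 0.024), which moved the median of all genes from 0.10 to −0.02. Over all genes, 1316 rises and 1090 falls in shRCOR2 cells became 1963 and 981 with FPKM and 1079 and 1283 with median-of-ratios scaling, while the members' median stayed between −0.43 and −0.23 over all settings.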
